A study of Mus musculus with 4 samples.

Results

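The cytosolic ribosomal protein genes encode the protein part of the ribosome that translates nuclear mRNAs. Members were taken by symbol from the protein-coding genes of the count table, as symbols starting with Rpl or Rps and a number, together with Rpsa, Rplp0, Rplp1 and Rplp2. Kinases whose symbols also start with Rps6k were left out. Of 90 rows that matched, 83 reached 10 counts in 2 or more libraries and were tested. The whole table held 41214 genes, of which 14554 passed the same filter. The 83 members comprised 31 proteins of the small subunit, 42 of the large subunit, the 3 proteins of the P stalk, and 7 paralogs, retrogenes or genes with a ribosomal symbol but another role. The 7 matching rows under the filter, among them Rpl3l and Rpl10l, each had at most 5 counts in any library.

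RNA was sequenced from B220+ spleen cells of MIZ-1 WT and MIZ-1 ΔPOZ mice, with 2 libraries of each genotype. MIZ-1 is a zinc finger transcription factor that pairs with MYC, and its POZ domain mediates contact with other proteins. In the MIZ-1 ΔPOZ mice (MB1-Cre x Miz-1 floxPOZ, C57BL/6 background, young adults) Cre expressed from the mb1 (Cd79a) locus deletes that domain in B lineage cells, so that a truncated MIZ-1 protein is made. The labels give the controls as WT, and neither group was treated.

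Each ribosome carries 1 copy of nearly every ribosomal protein, and the small and large subunits are assembled in the nucleolus before export. The P stalk is the exception, since it holds several copies of Rplp1 and Rplp2 on a base of Rplp0, and it recruits the translation factors that hydrolyse GTP. Ribosomal protein mRNAs typically begin with a C followed by a run of pyrimidines at the very 5′ end, called a 5′TOP, through which mTOR signalling and LARP1 control their translation and storage. Resting B cells carry few ribosomes, and growth signals such as MYC raise ribosome production when B cells are activated.

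The sequence around the start of transcription is shown for 8 members, chosen because they head the genes that were higher or lower or because they differ in their pyrimidine run. Each line gives 30 bases from 10 bases before the RefSeq start (GRCm38.p6), on the gene's strand, with the longest run of C and T that begins with C near the start in capitals.
Rplp0 (chr5:115559457-115559486, plus strand): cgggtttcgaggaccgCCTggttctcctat
Rplp2 (chr7:141447641-141447670, plus strand): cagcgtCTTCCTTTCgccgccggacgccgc
Rps2 (chr17:24720053-24720082, plus strand): gtcgagatctcgcgCTTCTTggagcactat
Rps12 (chr10:23787190-23787219, minus strand): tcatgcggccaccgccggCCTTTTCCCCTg
Rpl27a (chr7:109519185-109519214, plus strand): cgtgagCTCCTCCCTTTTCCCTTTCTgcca
Rpl13a (chr7:45128726-45128755, minus strand): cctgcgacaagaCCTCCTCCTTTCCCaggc
Rps27 (chr3:90213629-90213658, minus strand): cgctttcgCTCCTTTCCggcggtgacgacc
Rps27rt (chr9:114982720-114982749, minus strand): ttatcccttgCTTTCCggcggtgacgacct
A run of at least 8 pyrimidines beginning with C and starting within 10 bases of the RefSeq start was present in 23 of the 56 subunit members with a start in that table, or 41.1%. The share was 10.6% among 9707 tested protein-coding genes and 9.43% among all 27025 genes with a start. The run had 20 bases in Rpl27a, 14 in Rpl13a and 3 in Rplp0. RefSeq starts are annotated and were not measured in these cells, so a short run does not show that an mRNA lacks a 5′TOP.

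Ribosomal protein transcripts were slightly more abundant in MIZ-1 ΔPOZ cells, in most but not all members. Member counts made up 6.62% and 6.72% of all gene counts in the MIZ-1 WT libraries and 7.41% and 7.60% in the MIZ-1 ΔPOZ libraries, so the groups did not overlap. The median log2 fold change (MIZ-1 ΔPOZ over MIZ-1 WT) was 0.14 over the 83 members and -0.01 over all tested genes. Of the 83, 67 had a positive and 16 a negative log2 fold change, against 7185 and 7369 of all 14554 tested genes. The median absolute difference between replicates of a member was 0.05 on the log2 scale between the MIZ-1 WT libraries and 0.06 between the MIZ-1 ΔPOZ libraries. All B220+ values are from bulk RNA, in which fewer cells of a type and less RNA per cell cannot be told apart.

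By the quasi-likelihood test of edgeR, with p-values adjusted by Benjamini-Hochberg across the 14554 genes, 28 members rose and 1 fell at an adjusted p under 0.05, while 54 passed in neither direction. Among all tested genes, 21.1% rose and 18.9% fell by the same test, against 33.7% and 1.2% of the members. In this fit the members had a larger share of higher calls than the table and a smaller share of lower calls. Both MIZ-1 ΔPOZ libraries lay above both MIZ-1 WT libraries for 57 members and below them for 10, and the groups overlapped for 16. Over all tested genes these shares were 37.2% above and 37.6% below. The changes were small: 0 members reached a log2 fold change of 0.6 either way, the size limit in the study's methods, together with an unadjusted p under 0.05 in edgeR or in DESeq2, whereas 20.3% of all tested genes did. At an unadjusted p under 0.05 with no limit on size, 40 members were higher and 4 lower by edgeR. The count of higher members depended on the controls, since 3 passed without MIZ-1 WT replicate 1 and 7 without MIZ-1 WT replicate 2, where 9.57% and 12% of all tested genes were called higher. With libraries scaled by their totals alone 44 members (53%) and 24.8% of all genes were higher. Among genes with a mean of at least 30 CPM (counts-per-million, counts scaled to library size), 46 of 81 members (56.8%) and 24.2% of all genes were. The larger share of higher calls was not kept under every setting. With GC content and length offsets it was 24.1% of the members and 21.4% of all genes, with the replicate number as a block as well it was 20.5% and 19.2%, and with either control library left out the share of members was under that of the table.

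**Figure D1:**
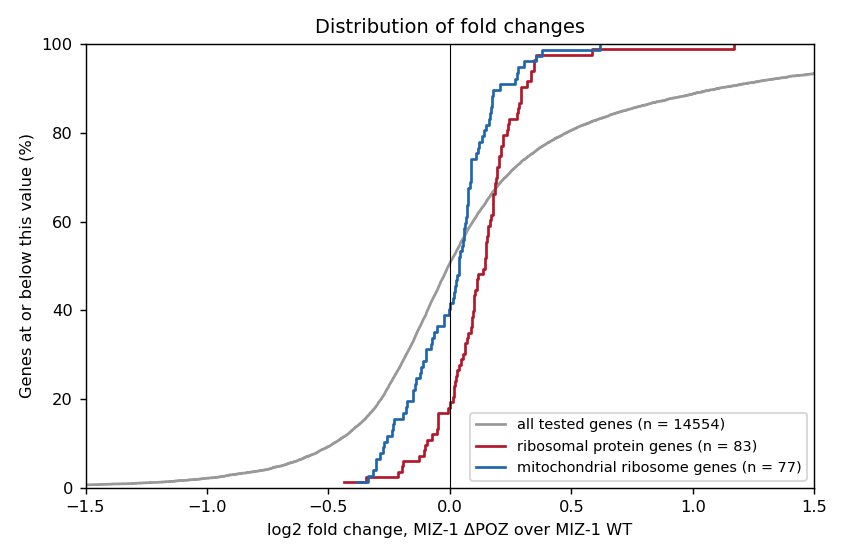
Cumulative share of genes (vertical axis, percent) at or below each log2 fold change (horizontal axis, MIZ-1 ΔPOZ over MIZ-1 WT) for all 14554 tested genes, the 83 ribosomal protein genes and 77 genes of the mitochondrial ribosome. The curve of the ribosomal protein genes is steep, crosses 50% at 0.14 against -0.01 for all tested genes, and has few genes at the far ends.

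Other features of the libraries moved with genotype. Alignments assigned to no counted feature were 27.2% and 25.5% of the table in the MIZ-1 WT libraries and 21.6% and 21.1% in the MIZ-1 ΔPOZ libraries. All 10 pan-B markers were detected, with a summed level of 10822 to 11138 CPM in MIZ-1 WT and 9069 to 9451 CPM in MIZ-1 ΔPOZ, and 8 of the 10 fell. All 18 macrophage markers rose, with sums of 1028 to 1352 CPM and 3891 to 5973 CPM, and none was at 0. All 19 proliferation genes rose, from sums of 829 to 842 CPM to sums of 1723 to 1952 CPM, and 7 of 8 plasma cell markers rose, from 884 to 1203 CPM to 2557 to 2727 CPM. The summed level of 11 T cell markers was 288 to 301 against 234 to 242 CPM (1 higher, 1 lower). Much of that sum was Cd2, the marker that fell, at 219 and 223 CPM in MIZ-1 WT and 155 and 157 CPM in MIZ-1 ΔPOZ. By sign, 7 of the 11 had a positive and 4 a negative log2 fold change. The summed level of 10 erythroid markers was 203 to 219 against 172 to 241 CPM (0 higher, 1 lower). Most of it was Tfrc, the marker that fell, at 152 and 156 CPM against 132 and 122 CPM, and the other 9 had a positive log2 fold change. For 9 neutrophil markers the summed level was 4.28 to 13.9 against 8.53 to 16.8 CPM, with 2 of the 6 tested higher. Xist had 1.12 and 1.43 CPM in the controls and 801 and 930 CPM in MIZ-1 ΔPOZ, and 4 Y-linked genes summed to 844 to 848 CPM and 38.1 to 39.3 CPM, so sex and genotype cannot be told apart. The part of these differences in the ribosomal protein values was not tested. Zbtb17, the gene of MIZ-1 itself, was at 47.8 and 46.3 CPM against 37.3 and 38.0 CPM, a value over the whole gene that does not resolve the deleted exons.

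All 3 members of the P stalk were higher, against 21.1% of all tested genes. Rplp0, the stalk base, was at 1362 and 1328 CPM in MIZ-1 WT and 1996 and 2032 CPM in MIZ-1 ΔPOZ. Its groups were well apart, with a log2 fold change of 0.58 (SE 0.05, adjusted p = 0.00171 by edgeR), the largest among the called members. Rplp2, one of the acidic proteins on that base, was at 539 and 527 CPM and at 657 and 698 CPM, a change of 0.34 (SE 0.05, adjusted p = 0.00588). Rplp1, its partner, was at 1310.5 and 1271 CPM and at 1471 and 1534 CPM, a change of 0.22 (SE 0.06, adjusted p = 0.0267). All 3 had both MIZ-1 ΔPOZ libraries above both MIZ-1 WT libraries. Rplp0 (chromosome 5, 115559467 to 115563727) passed under every one of 15 alternative settings, with adjusted p from 1.5e-24 to 0.021, whereas Rplp2 was at 0.0511 without MIZ-1 WT replicate 2. Rplp1 was at 0.108 and 0.149 without the first and the second MIZ-1 WT library.

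**Figure D2:**
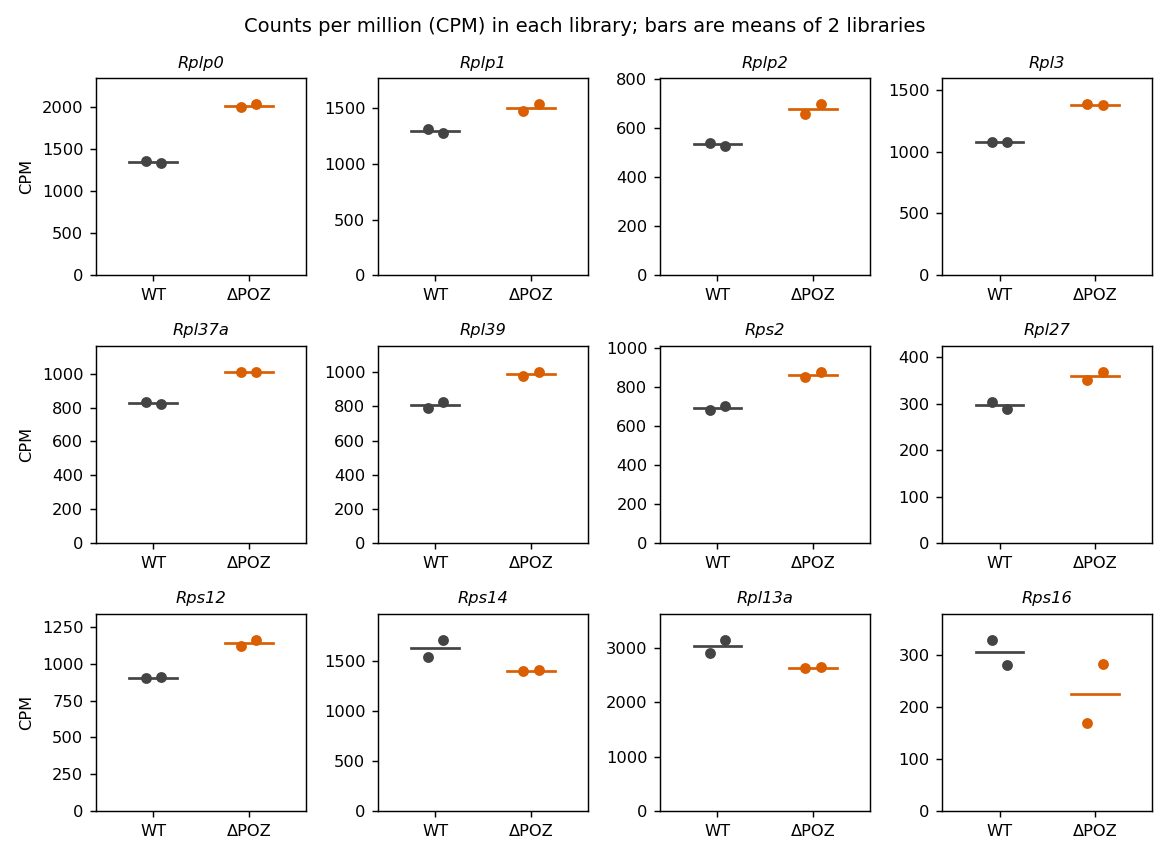
Counts-per-million (CPM, vertical axes, from 0) of 12 ribosomal protein genes in each of the 2 MIZ-1 WT and 2 MIZ-1 ΔPOZ libraries (points), with group means as bars. Rplp0 rises from 1345 to 2014 CPM on average, Rps14 and Rpl13a lie lower in MIZ-1 ΔPOZ, and the 2 MIZ-1 ΔPOZ values of Rps16 are far apart.

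In the large subunit, 16 of 42 members rose and 0 fell at the adjusted threshold, with a median log2 fold change of 0.11. That is 38.1% higher, against 21.1% of all tested genes. By edgeR at an unadjusted p under 0.05, 1 of them was lower. Rpl3, which lines the catalytic centre of the subunit, was at 1081 and 1080.2 CPM in MIZ-1 WT and at 1384 and 1377 CPM in MIZ-1 ΔPOZ. The replicates of this gene were nearly identical and the change was 0.35 (SE 0.05, adjusted p = 0.00472), which also passed under each of the 15 alternatives. Rpl37a, a zinc finger protein of the subunit, was at 832 and 818 CPM and at 1010.4 and 1008 CPM, a change of 0.29 (SE 0.05, adjusted p = 0.00746). Rpl39, a short protein of the exit tunnel encoded on the X chromosome, was at 788 and 828 CPM and at 977 and 1002 CPM, a change of 0.29 (adjusted p = 0.00977). Rpl27 changed by 0.28 (adjusted p = 0.0101) and Rpl27a by 0.24 (adjusted p = 0.0194), both with separate groups. Rpl10a was at 411 and 408 CPM and at 462 and 485 CPM, a change of 0.21 (adjusted p = 0.0201). The remaining large subunit genes that rose were Rpl6, Rpl7a, Rpl9, Rpl10, Rpl13, Rpl23, Rpl24, Rpl29, Rpl32 and Rpl37, with changes between 0.17 and 0.33. Without MIZ-1 WT replicate 1 or 2, 1 and 2 members of the large subunit were called higher. Without the first of these libraries the adjusted p was 0.0583 for Rpl37a, 0.0824 for Rpl39, 0.0548 for Rpl27, 0.121 for Rpl27a and 0.114 for Rpl10a. With GC content and length offsets 8 of the 42 members rose and 1 fell. The share that rose was then under the 21.4% of all genes called higher in that setting.

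In the small subunit, 7 of 31 members rose and 0 fell, with a median of 0.12. That is 22.6%, near the 21.1% of all tested genes. At an unadjusted p under 0.05, 2 of them were lower by edgeR. Rps12 was at 902 and 911 CPM in MIZ-1 WT and at 1121 and 1166 CPM in MIZ-1 ΔPOZ, a change of 0.33 (SE 0.05, adjusted p = 0.00595). Rps2, a protein near the mRNA entry channel, was at 685 and 703 CPM and at 852 and 879 CPM, a change of 0.32 (SE 0.05, adjusted p = 0.00618). Neither of these genes had overlapping groups. Rps6, the substrate of S6 kinase, changed by 0.22 (adjusted p = 0.0242), and Rps13, Rps20 and Rps28 rose as well, by 0.20, 0.23 and 0.19. Without MIZ-1 WT replicate 1, 0 members of the small subunit were called higher, with Rps12 at an adjusted p of 0.0562, Rps2 at 0.0614 and Rps6 at 0.153, and without MIZ-1 WT replicate 2, 3 were. Library totals alone gave 16.

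A few abundant members had values in the other direction without passing the test. Rps14 was at 1545 and 1717 CPM in MIZ-1 WT and at 1404 and 1410 CPM in MIZ-1 ΔPOZ, a log2 fold change of -0.21 (SE 0.07, adjusted p = 0.054 by edgeR). Rpl13a, a protein that is also released from the ribosome in interferon-treated cells, was at 2904 and 3149 CPM and at 2632 and 2640.4 CPM, a change of -0.20 (SE 0.07, adjusted p = 0.0622). Both lay just outside the threshold with separate groups, and DESeq2 gave adjusted p of 0.0123 and 0.00964. Rps27, a zinc finger protein chosen here after its values were seen, was at 313 and 288 CPM and at 248 and 277 CPM (change -0.19, adjusted p = 0.0804). Closest to the threshold were Rpl32 (0.21, adjusted p = 0.0489) and Rps27a (0.18, adjusted p = 0.0505).

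**Figure D3:**
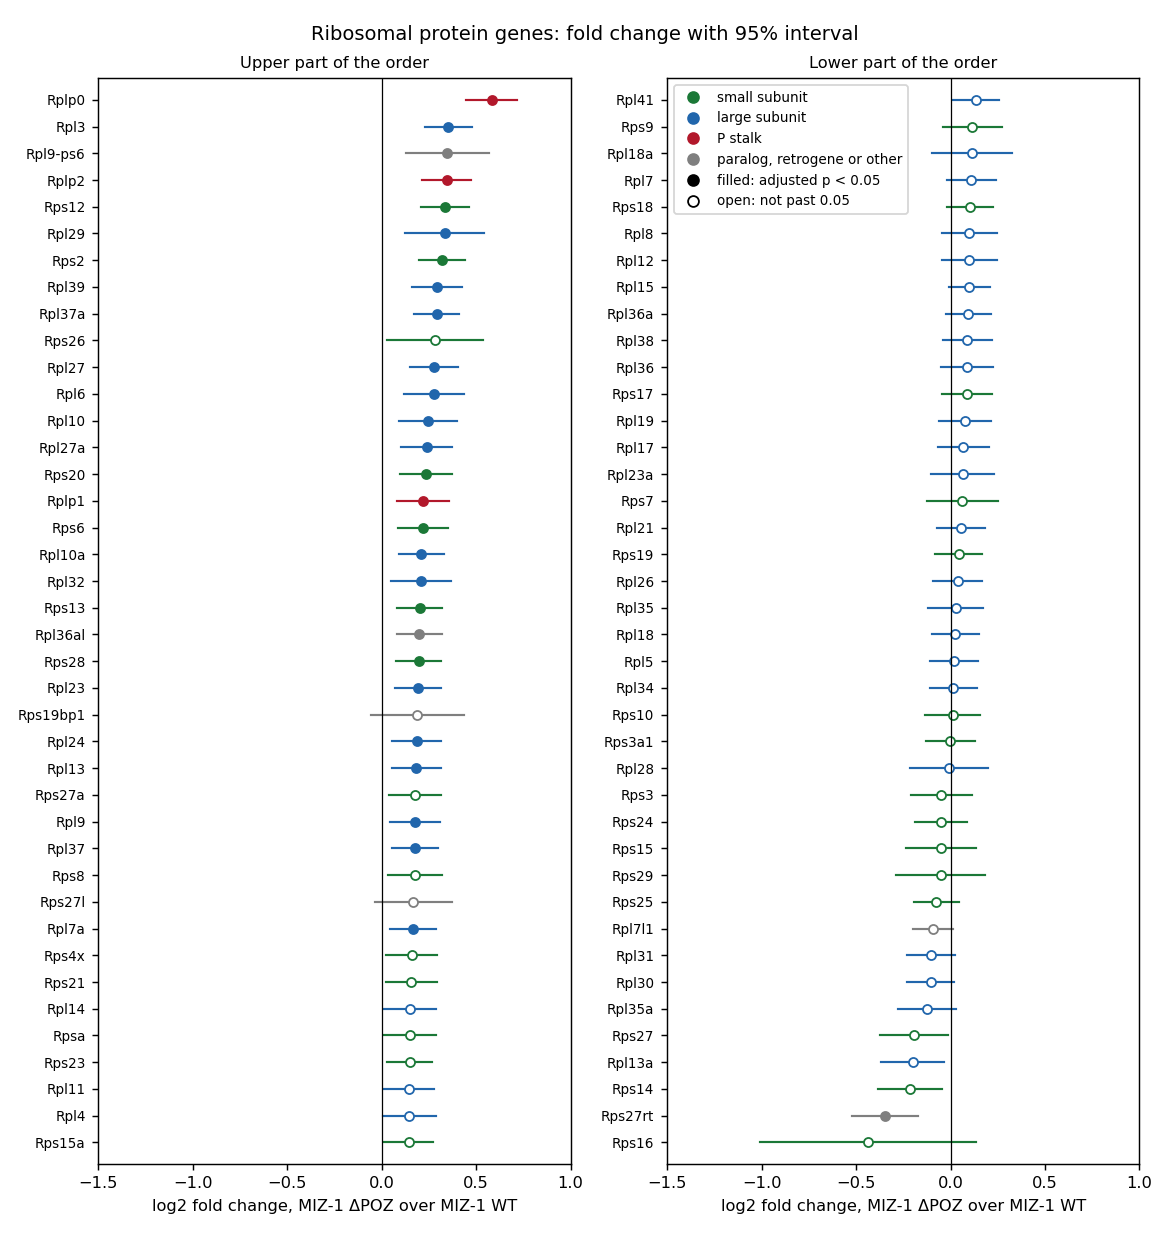
Log2 fold change (horizontal axis, MIZ-1 ΔPOZ over MIZ-1 WT) of 80 ribosomal protein genes with its 95% confidence interval, in order of size and split over 2 panels, coloured by subunit and filled where the adjusted p was under 0.05. Rplp0 leads with 0.58, most members lie between 0 and 0.35, and Rps16 has the widest interval, from -1.01 to 0.13. Rpl39l, with at most 56 counts, and 2 further members that are not reported here are not drawn.

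Rps16, an essential protein of the small subunit, is also named after its values were seen, because its replicates disagreed. It had 14347 and 11793 counts in MIZ-1 WT against 8023 and 12351 counts in MIZ-1 ΔPOZ, or 329, 281, 169 and 281 CPM. The second MIZ-1 ΔPOZ library lay within the range of the controls and the first far under them, and the change of -0.44 (SE 0.23) had an adjusted p of 0.181. Without MIZ-1 ΔPOZ replicate 1 the change was -0.11, and without MIZ-1 ΔPOZ replicate 2 it was -0.83 with an adjusted p of 0.000631. The processed pseudogene Rps16-ps2, on chromosome 5 in the span of Adgrd1 and read from the opposite strand, had 1870 and 1584 counts in MIZ-1 WT against 1047 and 1478 in MIZ-1 ΔPOZ. All of its 392 stretches of 50 bases (50-mers) also occur in Rps16 transcripts, so reads of the 2 genes may be exchanged.

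**Figure D4:**
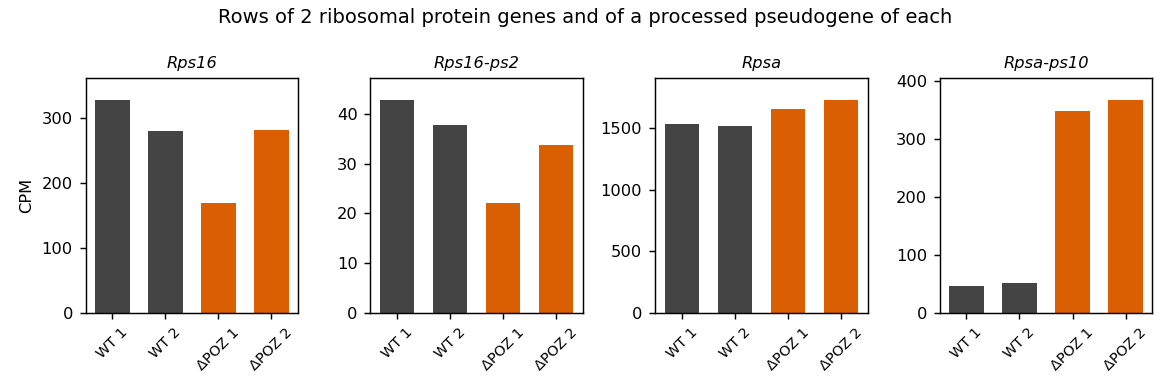
Counts-per-million (CPM, vertical axes, from 0) in each library for Rps16, its pseudogene Rps16-ps2, Rpsa and its pseudogene Rpsa-ps10. The first MIZ-1 ΔPOZ library is lowest for both Rps16 and Rps16-ps2, and Rpsa-ps10 stands at 347 and 367 CPM in MIZ-1 ΔPOZ against 46.3 and 51.6 CPM in MIZ-1 WT while Rpsa differs little.

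Rpsa, the laminin receptor homologue of the small subunit, was at 1538 and 1523 CPM in MIZ-1 WT and at 1661 and 1734 CPM in MIZ-1 ΔPOZ (log2 fold change 0.15, adjusted p = 0.0808). Its processed pseudogene Rpsa-ps10 (chromosome 3, 150072658 to 150073542, minus strand, GRCm38), no member by the rule, had 2020 and 2169 counts in MIZ-1 WT and 16541 and 16131 counts in MIZ-1 ΔPOZ. The log2 fold change was 2.87 (SE 0.07, adjusted p = 6.1e-05 by edgeR). Of its 836 50-mers, 74.6% also occur in Rpsa transcripts and 82.3% in transcripts of any other gene, so that only the remainder sets it apart from other genes.

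Of the 7 members outside the standard subunit set, 2 rose (28.6%), 1 fell (14.3%) and 4 were not called. Over all tested genes, 21.1% rose and 18.9% fell. Rpl36al, a near copy of Rpl36a, was at 99.9 and 95.3 CPM in MIZ-1 WT and at 113 and 111 CPM in MIZ-1 ΔPOZ (0.20, adjusted p = 0.0235), with an adjusted p of 0.0953 and 0.174 without the first and the second MIZ-1 WT library. Rpl9-ps6, an intronless copy of Rpl9 that the annotation gives as protein-coding and that was named after its values were seen, was at 108 and 126 CPM and at 142 and 157 CPM (0.35, adjusted p = 0.0273, and 0.137 without MIZ-1 WT replicate 1). Rps27rt, a retrogene of Rps27 on chromosome 9 (114982366 to 114982739), was the member that fell. It was at 86.1 and 86.3 CPM in MIZ-1 WT and at 63.5 and 72.0 CPM in MIZ-1 ΔPOZ, a change of -0.35 (SE 0.07, adjusted p = 0.0135), and the adjusted p was 0.081 and 0.0753 without the first and the second MIZ-1 WT library. Of its 50-mers 91.1% occur in other genes, Rps27 is itself at 98.6%, and their reads can be exchanged. Rps27rt also lies within the span of Osbpl10 on the other strand. Rps27l, a p53-responsive paralog of Rps27, was at 41.3 and 44.5 CPM and at 51.3 and 45.1 CPM (0.17, adjusted p = 0.154). Rpl7l1, a paralog with a role in ribosome assembly, was at 144 and 143 CPM and at 136 and 133 CPM (-0.09, adjusted p = 0.139). Rps19bp1, which binds Rps19 and SIRT1 and is no subunit, was at 9.83 and 9.3 CPM and at 10.5 and 11.3 CPM (0.19, adjusted p = 0.184). Rpl39l, a paralog used mainly in male germ cells, had 2 and 24 counts in MIZ-1 WT against 56 and 8 in MIZ-1 ΔPOZ, with overlapping groups.

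Levels differed far more between members than between genotypes. Per kilobase of the chosen transcript, the mean over all libraries ran from 143 CPM per kilobase for Rpl29 to 2799 for Rplp1, a ratio of 19.6 with a median of 1053 over the 76 subunit members. Rplp1 was followed by Rpl13a at 2704, Rpl32 at 2609 and Rps14 at 2544 CPM per kilobase. Rps9, high in the order of the small subunit, was at 2160.0 CPM per kilobase and changed by 0.12 (adjusted p = 0.196). Rpl13a led the order in MIZ-1 WT (2891 CPM per kilobase) and Rplp1 in MIZ-1 ΔPOZ (3012 CPM per kilobase). The lowest after Rpl29 were Rpl24 at 158, Rpl28 at 170.0 and Rps16 at 239 CPM per kilobase. This order depends on the transcript chosen for each gene, which had 5130 bases for Rps15a and 3706 for Rps20. Reads that map to several places entered neither the gene counts nor the library sizes. The order may therefore also depend on how much of a member's sequence is repeated elsewhere. The median share of a subunit member's 50-mers that occur in another gene was 56.7%, from 0 to 98.6% for Rps27, and 47 of the 76 shared over 50% of them.

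Across the 76 subunit members, which share the same libraries and are not independent, Spearman's rho with the log2 fold change was -0.15 for the mean level per kilobase, 0.11 for transcript length, -0.04 for GC content and 0.01 for the share of repeated 50-mers. Over all tested genes, 21.1% rose. Among members sharing over 50% of their 50-mers, 16 of 47 rose (34%, median 0.10), and among the others 10 of 29 did (34.5%, median 0.14). Of 30 members with a small nucleolar RNA gene inside their span, as many ribosomal protein introns carry, 16 rose (53.3%, median 0.18). Among the 46 members without one, 10 rose (21.7%, median 0.10), near the share of all tested genes. Of 23 members with a long pyrimidine run at the start, 6 rose (26.1%, median 0.10). That compares with 14 of the 33 with a RefSeq start and no such run (42.4%, median 0.15). None of these splits was tested. All 4 X-linked subunit members, Rpl10, Rpl36a, Rpl39 and Rps4x, had both MIZ-1 ΔPOZ libraries above both MIZ-1 WT libraries, and Rpl10 and Rpl39 passed the test. The same separation was present in 53 of all 76 subunit members and in 37.2% of all tested genes.

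Some members also occur in a published list of genes that respond to BCR stimulation, which accompanied the study and was made from other cells. All 11 members in it are listed there as induced. In the unstimulated cells measured here, Rpl10 (0.24, adjusted p = 0.0263) and Rpl9 (0.18, adjusted p = 0.0463) rose. That is 18.2% of these 11 members, under the 21.1% of all tested genes. The call of Rpl9 was lost when any single library was left out, and Rpl10 was at 0.106 and 0.146 without the first and the second MIZ-1 WT library and at 0.0804 with GC content and length offsets. The other 9, among them Rpl4, Rpl5, Rpl8, Rpl14 and Rpl18, were not called, with changes from -0.09 to 0.19.

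Other genes of the translation apparatus were counted from the same fit, in lists that partly share genes. Over all tested genes, 21.1% rose and 18.9% fell. Of 20 further mRNAs described as 5′TOP, 8 rose (40%) and 1 fell (5%), with a median log2 fold change of 0.15. Ipo5, an importer of ribosomal proteins, was at 116 and 118 CPM in MIZ-1 WT and at 158 and 154 CPM in MIZ-1 ΔPOZ (0.41, adjusted p = 0.00224). Npm1, a nucleolar chaperone, was at 601 and 592 CPM and at 809 and 764 CPM (0.40, adjusted p = 0.00373). Nap1l1, a histone chaperone, was the gene that fell (-0.22, adjusted p = 0.0322, and 0.161 and 0.128 without the first and the second MIZ-1 WT library). Without these libraries in turn 2 and 3 of the list were higher and 0 lower, and Ipo5 and Npm1 kept their calls.

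Of 12 elongation and termination factors, 6 rose (50%) and 0 fell (0 also at an unadjusted p under 0.05 by edgeR), with a median of 0.16. Eif5a, which promotes peptide bond formation, changed by 0.39 (adjusted p = 0.0023), and Eef2k, the kinase that inhibits Eef2, by 0.46 (adjusted p = 0.00643). Of 40 initiation factors, 7 rose (17.5%) and 1 fell (2.5%), with a median of 0.04. Both shares were under those of all tested genes (21.1% and 18.9%). The X-linked Eif2s3x led them (0.67, adjusted p = 0.000961 by edgeR), but for this gene sex and genotype cannot be told apart. The Y-linked Eif2s3y was at 196 and 215 CPM in MIZ-1 WT and at 10.25 and 9.93 CPM in MIZ-1 ΔPOZ. Next among the initiation factors that rose was the scaffold Eif4g1 (0.23, adjusted p = 0.012). Eif2b3, a subunit of the eIF2 exchange factor, fell from 21.7 and 20.4 CPM to 11.4 and 10.3 CPM (-0.96, adjusted p = 0.00179). Among 6 dedicated chaperones of ribosomal proteins, Heatr3 (0.35, adjusted p = 0.00943) and Rpf2 (0.24, adjusted p = 0.0283) rose (33.3%) and the other 4 were not called. Without MIZ-1 WT replicate 1 or 2, the number higher was 2 and 1 for elongation factors, 1 and 1 for initiation factors and 0 and 1 for chaperones. Eif5a, Eif2s3x and Eif2b3 kept their calls in both, while Eef2k was at 0.052 without the second, Eif4g1 at 0.1 and 0.0743, Heatr3 at 0.0696 without the first and Rpf2 at 0.142 and 0.128.

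Of 14 regulators of 5′TOP mRNAs and growth, 2 rose (14.3%) and 4 fell (28.6%), with a median of -0.10. Over all tested genes these shares were 21.1% and 18.9%. Myc was at 28.1 and 23.4 CPM in MIZ-1 WT and at 35.2 and 39.5 CPM in MIZ-1 ΔPOZ (0.53, adjusted p = 0.0139). Larp1, which binds the 5′TOP, changed by 0.28 (adjusted p = 0.049). Tsc1, an inhibitor of mTOR signalling (-0.32, adjusted p = 0.00536), and the S6 kinase gene Rps6kb2 (-0.33, adjusted p = 0.0161) fell. Without MIZ-1 WT replicate 2, 0 of the regulators were higher and 2 lower, with Myc at an adjusted p of 0.063 and Larp1 at 0.168. Without MIZ-1 WT replicate 1, 1 was higher and 1 lower, with Larp1 at 0.193 and Rps6kb2 at 0.111. Tsc1 passed in both. The 77 genes of the mitochondrial ribosome, which translates the mRNAs of mitochondrial DNA, had a median of 0.04. Of these genes, 7 were higher (9.09%) and 11 lower (14.3%), both under the shares of all tested genes. Mrpl52 (0.62) and Mrpl45 (0.35) had the smallest p among those that rose, and Mrps23 (-0.34) and Mrps25 (-0.31) among those that fell. Without MIZ-1 WT replicate 1 the mitochondrial list had 1 higher and 0 lower, and without MIZ-1 WT replicate 2 it had 2 and 2. Without the first of these Mrpl45 was at 0.0614, Mrps23 at 0.0671 and Mrps25 at 0.0803.

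**Figure D5:**
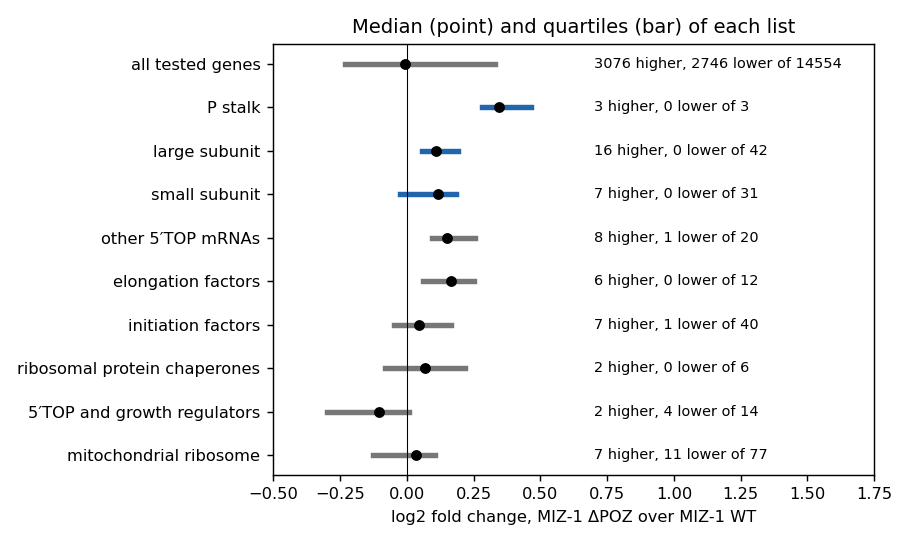
Median (points) and lower to upper quartile (bars) of the log2 fold change (horizontal axis, MIZ-1 ΔPOZ over MIZ-1 WT) for all tested genes, the 3 structural groups of ribosomal proteins and 6 lists of other translation and growth genes, with the number higher and lower at an adjusted p under 0.05. The P stalk has the highest median at 0.34 and the regulators the lowest at -0.10, and the quartiles of all tested genes run from -0.23 to 0.33.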

How the data were processed

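RNA of B220+ splenocytes was depleted of ribosomal RNA and sequenced as stranded paired-end libraries (2 per genotype). The authors trimmed reads with Trimmomatic, aligned them to mm10 (GRCm38) with TopHat2 (version 2.1.0 in the submitters' processing notes) and deposited unnormalised HTSeq counts per Ensembl gene. The strand setting, overlap mode and annotation release are not given in the sources used here, and 23 members overlap a gene on the other strand. The libraries held 43026814 to 46387209 gene counts. Reads that aligned to several places (42.8% to 44.2% of the table) were not counted to genes. The 5 summary rows that HTSeq adds entered neither the library sizes nor the tests.

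Genes that reached 10 counts in 2 or more libraries were tested with edgeR 4.0.16 (R 4.3.3, TMM scaling, quasi-likelihood F test on genotype, Benjamini-Hochberg adjustment over all 14554 genes, threshold 0.05). CPM were scaled by TMM factors. DESeq2 1.42.0, the tool of the study's methods, was an alternative. The procedure was tested on simulated data. Symbols, positions and transcripts came from GENCODE vM21, which gave a symbol to 40254 of 41214 genes, and start sites came from RefSeq. One coding transcript per gene, the shortest of the best supported, gave lengths.

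Members and lists were chosen with earlier results of these data known. Some symbols were left out by the selection rule and are not reported here. Named members were the 2 of highest CPM per kilobase in each subunit, the P stalk, the 10 of smallest p in each direction with separate groups, the paralogs, and those in the BCR-responsive list. Of each other list the 2 genes of smallest p in each direction were named. Same-numbered libraries did not deviate together (correlation of deviations -0.07), so replicate numbers were not treated as pairs. The labels call the 2 libraries of a genotype a biological duplicate without naming mice, so p-values measure only the spread between them.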

Additional observations from a re-analysis of the deposited data

How the results depend on the processing

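With 2 libraries per genotype, the number of ribosomal protein genes called was the least stable value. Main values were 28 higher and 1 lower. The number higher was 44 with library totals alone, 46 with a mean of at least 30 CPM and 17 with the replicate block together with GC content and length offsets. The number lower was 3 with DESeq2, 4 with no filter, 4 with GC content and length offsets, 2 with these offsets and the block, and 2 without immunoglobulin segments. Leaving out one library gave 3 to 29 higher and 0 to 3 lower. The replicate block alone gave 20 higher and 1 lower. The cause of these shifts was not tested, except that fewer samples entered the fits that left one out. The median of the members stayed positive under all 15 alternatives, between 0.0954 and 0.211.

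With library totals alone the median log2 fold change was 0.209 for other 5′TOP mRNAs, 0.225 for elongation factors, 0.0971 for the mitochondrial ribosome, -0.0431 for the regulators and 0.128 for the chaperones. With a mean of at least 30 CPM these were 0.225, 0.24, 0.0995, -0.0274 and 0.177, with 0.124 for initiation factors and 0.79 for proliferation genes. Upper quartile factors gave 0.189 for elongation factors. GC content and length offsets gave -0.00924 for the mitochondrial ribosome, and -0.00925 together with the block. Of 461 values of 31 named members under alternatives, 1 changed sign, near 0, in that Rpl5 ran from -0.00193 (without MIZ-1 WT replicate 1) to 0.0523 when each library was left out. A further 39 lost and 21 gained the threshold.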

Other observations

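Rows named as processed pseudogenes of ribosomal protein genes, 243 in all, held 33581 and 34015 counts in the MIZ-1 WT libraries and 54356 and 52784 counts in the MIZ-1 ΔPOZ libraries, or 1.14%, 1.18%, 1.58% and 1.61% of the counts of the members. Without Rpsa-ps10 they held 31561 and 31846 counts and 37815 and 36653 counts, so that 1 row held most of the difference. Rps4l, annotated as a transcribed processed pseudogene of the Rps4 family, was at 3.37 and 3.95 CPM in MIZ-1 WT and at 6.72 and 5.92 CPM in MIZ-1 ΔPOZ (log2 fold change 0.79, SE 0.16, adjusted p = 0.0125 by edgeR, and 0.0879 without MIZ-1 WT replicate 1). Rack1, a signalling scaffold on the small subunit that the symbol rule does not take in, was at 2524 and 2646 CPM and at 2750.1 and 2749.8 CPM (0.09, adjusted p = 0.286), and Eef1a1, the most abundant elongation factor listed here, was at 7896 and 7976 CPM and at 9566 and 9480.3 CPM (0.26, adjusted p = 0.0353, a call lost when any single library was left out, at 0.065 to 0.151).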
